A study of Mus musculus with 21 samples.

Results

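Immediate early genes are a family of response genes, and 10 of them were followed here through the differentiation of mouse embryonic stem cells into motor neurons: Fos, Fosb, Fosl2, Jun, Junb, Egr1, Egr2, Ier2, Klf6 and Dusp1. The 10 genes were taken by name from a table of 55400 genes, and all 10 were present in it. Messenger RNA was sequenced in 21 libraries of 7 groups, with 3 replicates in each group. Wild-type C57BL/6 cells, kept before differentiation on a layer of Mitomycin C-treated embryonic fibroblasts, were grown as hanging-drop embryoid bodies, given 1 µM retinoic acid and 0.5 µM of the Sonic Hedgehog agonist SAG from day 2, and collected on day 4 (D4), 8 h later (D4H8), on day 5 (D5) and on day 6 (D6). The Notch pathway inhibitor DAPT was added at 5 µM on day 4 and was again in the new medium of day 5, so the groups after D4 differ from D4 in DAPT as well as in time. The new medium of day 5 is described without retinoic acid or SAG, so D6 also differs from the earlier stages in their withdrawal and in a change of medium, and the effects of these and of time cannot be told apart. The remaining 3 groups, D4H8+GSKJ4, D5+GSKJ4 and D6+GSKJ4, had also received GSKJ4, an inhibitor of the Kdm6 histone H3K27 demethylases, from 1 day before collection. The question put by the design is how gene expression moves from stage to stage, and what inhibiting the demethylase changes at each of 3 stages.

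Immediate early genes are transcribed within minutes of a growth factor, depolarization or stress, without the need for new protein, because their promoters hold transcription factors such as SRF and CREB that kinases of the ERK, JNK and p38 pathways switch on. Fos and Jun family proteins pair through leucine zippers to form the AP-1 transcription factor, Egr1 and Egr2 are zinc finger transcription factors, and Dusp1 is a phosphatase that removes the activating phosphates from these kinases and so closes the loop. Neurons are known for inducing these genes with electrical activity, while stem cells and fibroblasts induce them after serum, fresh medium or handling.

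The libraries held between 14982115 and 34383842 counts assigned to genes (median 16238435), and the deepest was D4H8 replicate 1. D5+GSKJ4 replicate 2 had no count for 39381 genes, while the remaining 20 libraries had none for 29339 to 32805. The cultures were mixtures, and a bulk library cannot tell fewer cells of a type from less RNA per cell. Motor neuron markers (6 genes) summed to between 7.46 and 18.9 FPKM (fragment counts scaled for gene length and library depth, a level per length) at D4 and to between 361.75 and 433.36 FPKM at D6, so the markers that define the labelled cell type, differentiated motor neuron, were low at D4. Pan-neuronal markers (5 genes) went from between 30.8 and 63.2 FPKM to between 1659.5 and 1897.4 FPKM. Pluripotency markers (6 genes) did not disappear, and replicate 1 was the lowest in every group, treated or not. At D6 it had 12.2 FPKM against 100.33 and 89.97 FPKM in replicates 2 and 3. In D6+GSKJ4 it had 14.8 FPKM against 109.53 and 84.88 FPKM. The study describes the replicates of a stage as biologically independent, and does not say whether libraries with the same replicate number came from 1 differentiation.

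The sequence just upstream of the transcription start is shown for the 4 members whose changes the results turn on, 2 that rose steadily (Jun and Dusp1), Fos as the member that gives the family its name, and Klf6, which responded to GSKJ4. The set of RefSeq promoters used here held an entry for 8 of the 10 members. It had none for Egr1 and Ier2, so their promoters were not searched. Each line runs 5′ to 3′ over the 250 bases before the RefSeq start on the gene's own strand in GRCm38.p6, and the capitals mark matches on either strand to the cyclic AMP response element (CRE, TGACGTCA), to its first 5 letters (TGACG, here the CRE core) or to TGACATCA, a CRE with an A at the fifth base. The windows lie at chr12:85473640-85473889 (Fos, plus strand), chr4:95052223-95052472 (Jun, minus strand), chr13:5861239-5861488 (Klf6, plus strand) and chr17:26508473-26508722 (Dusp1, minus strand).
Fos promoter: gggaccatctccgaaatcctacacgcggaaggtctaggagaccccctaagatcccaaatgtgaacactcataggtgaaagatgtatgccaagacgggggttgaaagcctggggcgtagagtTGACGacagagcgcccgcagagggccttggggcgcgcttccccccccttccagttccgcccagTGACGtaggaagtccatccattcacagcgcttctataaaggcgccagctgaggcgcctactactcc
Jun promoter: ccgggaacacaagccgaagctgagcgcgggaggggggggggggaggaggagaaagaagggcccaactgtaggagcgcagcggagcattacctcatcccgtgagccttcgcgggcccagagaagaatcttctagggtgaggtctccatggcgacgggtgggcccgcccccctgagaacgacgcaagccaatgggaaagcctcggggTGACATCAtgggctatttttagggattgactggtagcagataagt
Klf6 promoter: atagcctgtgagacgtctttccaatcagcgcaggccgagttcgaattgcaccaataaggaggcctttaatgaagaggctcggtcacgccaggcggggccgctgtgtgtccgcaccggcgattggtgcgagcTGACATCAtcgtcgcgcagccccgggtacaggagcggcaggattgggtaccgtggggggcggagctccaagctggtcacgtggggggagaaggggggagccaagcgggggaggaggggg
Dusp1 promoter: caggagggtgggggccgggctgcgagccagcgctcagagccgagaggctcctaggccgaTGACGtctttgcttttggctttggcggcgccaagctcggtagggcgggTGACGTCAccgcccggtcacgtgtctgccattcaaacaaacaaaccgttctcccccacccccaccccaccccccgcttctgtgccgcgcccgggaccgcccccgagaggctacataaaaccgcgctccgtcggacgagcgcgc

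The matches differed among the members. The Dusp1 window held a whole CRE that began 143 bases before the start and another CRE core 191 bases before it, and 2 of its 3 CRE cores, at 143 and 140 bases, overlap that CRE. A whole CRE occurs in 1.55% of the 32851 promoter windows of this length. Jun and Klf6 each held TGACATCA, 45 and 119 bases before the start, which 2.93% of windows hold. Fos carried CRE cores that began 129 and 66 bases before the start, and single CRE cores stood 60 bases before the start of Fosb and 106 bases before that of Junb, while 17.8% of all windows hold a CRE core. Of the 8 members searched, Egr2 was the one with a match to the CArG box, the element that SRF binds. That match is present in 1.47% of windows and was found upstream of 4 of its RefSeq starts. No window of these 8 members held the letters TGANTCA, a consensus form of the AP-1 element, which 6.75% of windows hold. Egr1 and Ier2 were not searched for any of these elements. A match is a description of letters and not a measured site, and the absence of a match says only that the letters are not in this window.

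The GRCm38 annotation used here gave a symbol to 55140 of the 55400 genes. In it Fos lies at 12:85473890-85477273 on the plus strand, Fosb at 7:19302696-19310051 on the minus strand and Fosl2 at 5:32135801-32157842 on the plus strand. Jun occupies 4:95049034-95052222 and Junb 8:84974484-84978718, both on the minus strand. Egr2 is at 10:67535475-67542188 (plus), Ier2 at 8:84661331-84662852 (minus), Klf6 at 13:5861482-5870394 (plus) and Dusp1 at 17:26505590-26562128 (minus). Whether counting used strand is not given in the sources used here, so exons shared with a gene on the opposite strand matter. In the GRCm38 annotation Junb has 2301 exonic bases and shares 173 of them with Prdx2, which had 2482 to 17197 counts per library. The deposited exonic length of Junb is 1809 bases, so the gene model that was counted differs. Whether it holds the shared bases is not known, and the values of Junb are uncertain for that reason. Jun shares 232 exonic bases with Junos, which had at most 45 counts in a library, and Dusp1 shares 11 with Ergic1.

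The members covered a wide range of levels. Ier2 (a short nuclear protein induced by growth factors) and Jun were the highest, with group means of 26.0 to 52.6 FPKM for Ier2 and 11.7 to 65.2 FPKM for Jun. Klf6, a Krüppel-like zinc finger factor, had group means of 9.28 to 21.2 FPKM, while Junb ranged from 4.55 to 12.9, Egr1 from 3.37 to 12.2 and Dusp1 from 3.94 to 14.95 FPKM. Fos and Fosl2 were low throughout, between 0.74 and 2.47 FPKM for Fos and between 0.773 and 2.81 FPKM for Fosl2. Fosb and Egr2 were close to absent: no library had more than 10 counts of Fosb or more than 17 of Egr2, and their highest levels were 0.1 and 0.26 FPKM. Fos itself was measured from few reads, 23 to 165 counts per library.

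**Figure D1:**
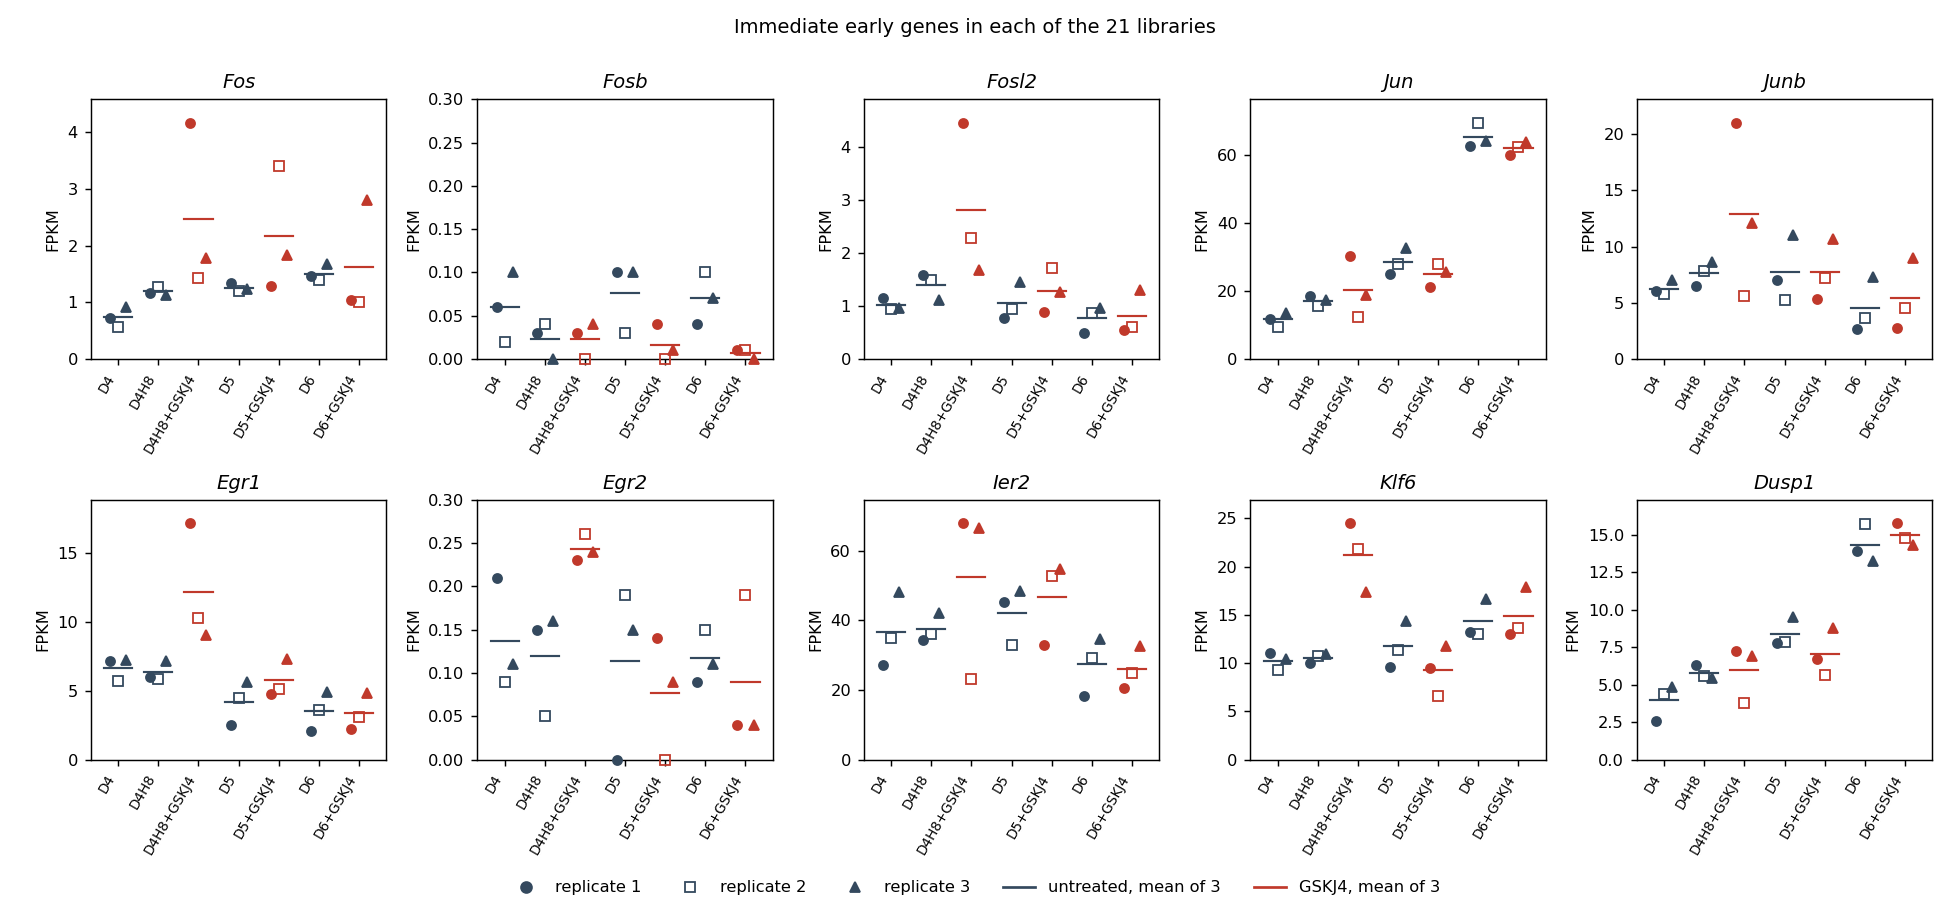
FPKM of the members in each of the 21 libraries by group, with each point 1 library and the bar the mean of 3 replicates. Jun and Dusp1 climb along the untreated stages from D4 to D6, while Klf6, Egr1, Fos and Fosl2 stand higher in the D4H8+GSKJ4 libraries than at D4H8, with replicate 1 of that group on top for all of these.

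Along the untreated stages the members did not move together. Jun and Dusp1 rose from D4 to D6, Fos and Klf6 also ended higher and Egr1 ended lower, while Fosl2, Junb, Ier2 and Fosb did not pass the test between D4 and D6. Of the 9 members with enough counts to be tested, 4 were higher and 1 lower at D6 than at D4 by edgeR's quasi-likelihood test (Benjamini-Hochberg adjusted p under 0.05 over 17519 genes). These shares have to be read against the whole table, where 32.9% of genes were higher and 31.0% lower. The median log2 fold change of the 9 was 0.28, against -0.04 over all genes, and the stage comparisons share libraries with each other.

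Jun, the AP-1 subunit with the strongest transactivation in its family, had the largest change. It was at 11.87, 9.5 and 13.6 FPKM in the 3 replicates at D4 and at 18.54, 15.45 and 17.35 FPKM at D4H8. At D5 it was at 24.85, 27.76 and 32.5 FPKM, and at D6 at 62.46, 69.28 and 63.96 FPKM. Each stage lay wholly above the one before it in these libraries. The mean went from 11.7 ± 2.06 to 65.2 ± 3.58 FPKM (SD, n = 3 each), a 5.85-fold rise over the whole course (log2 2.55, SE 0.15, adjusted p = 5.935e-09 by edgeR). On the log2 scale the first step, to D4H8, was 0.50 (SE 0.14, adjusted p by edgeR 0.0722), the step on to D5 was 0.73 (SE 0.14, adjusted p = 0.00181) and the last was 1.32 (SE 0.14, adjusted p = 1.842e-05). Thus the last day carried the largest step. The first did not pass by edgeR with the filter on low counts, although it did with DESeq2 and by edgeR without that filter. Ranked by mean level, Jun ran D4, D4H8, D4H8+GSKJ4, D5+GSKJ4, D5, D6+GSKJ4 and D6, and of these neighbours D4 and D4H8, and D5 and D6+GSKJ4, did not overlap while the other pairs did.

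Dusp1, the phosphatase that switches off the kinases upstream of Jun, followed the same order of stages. Its replicates were at 2.58, 4.38 and 4.86 FPKM at D4 and at 6.29, 5.56 and 5.42 FPKM at D4H8. They were at 7.81, 7.82 and 9.48 FPKM at D5 and at 13.93, 15.75 and 13.27 FPKM at D6. No library of a stage fell within the range of the stage before. From D4 to D6 Dusp1 rose 3.86-fold (log2 1.95, SE 0.18, edgeR adjusted p = 5.163e-07). Its 3 steps were 0.52 (adjusted p = 0.137), 0.54 (adjusted p = 0.0348) and 0.89 (adjusted p = 0.00157) on the log2 scale. The middle step rested on little: leaving out any library of D4H8 or D5 other than D4H8 replicate 1 took its adjusted p past 0.05, as did upper-quartile scaling (adjusted p = 0.0521) and a fit over all 21 libraries (adjusted p = 0.114).

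Fos, the founding partner of Jun in AP-1, ended higher from a low start. The 3 libraries were at 0.73, 0.57 and 0.92 FPKM at D4, 1.17, 1.28 and 1.14 FPKM at D4H8, 1.35, 1.2 and 1.24 FPKM at D5 and 1.46, 1.39 and 1.68 FPKM at D6. D4 lay below all later untreated libraries, and the later stages were close to each other. From D4 to D6 Fos rose 2.13-fold (log2 1.09, SE 0.26, edgeR adjusted p = 0.0021), but the call was lost in the fit over all 21 libraries (adjusted p = 0.051). The step from D4 to D4H8 gave a log2 fold change of 0.64 (SE 0.26, adjusted p = 0.218) and did not pass.

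The other Fos and Jun relatives did not follow. Fosl2 (Fra-2) had 1.15, 0.94 and 0.97 FPKM at D4 and 0.49, 0.87 and 0.96 FPKM at D6, with overlapping libraries and a log2 fold change of -0.36 (edgeR adjusted p = 0.28). Junb, a weaker activator than Jun that can counter it, had 6.03, 5.76 and 7.02 FPKM at D4 and 2.71, 3.65 and 7.30 FPKM at D6, with replicates 1 and 2 of D6 below every D4 library and replicate 3 above them. Over the course Junb had a log2 fold change of -0.41 (adjusted p = 0.271), and without D6 replicate 3 it was -0.89 (adjusted p = 0.0157). Fosb had 9, 2 and 10 counts at D4, 7, 4 and 0 at D4H8, 10, 3 and 10 at D5 and 4, 10 and 7 at D6, too few to rank the stages.

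Egr1, the zinc finger factor often used as a marker of ERK signalling, went the other way. It was at 7.14, 5.74 and 7.21 FPKM at D4, at 6.04, 5.86 and 7.15 FPKM at D4H8, at 2.50, 4.46 and 5.62 FPKM at D5 and at 2.05, 3.61 and 4.94 FPKM at D6. The D5 and D6 libraries all lay below those of D4 and D4H8. Egr1 fell by 0.88 on the log2 scale from D4 to D6 (SE 0.28, edgeR adjusted p = 0.015), and the call rested on D6 replicate 1, without which the fall was -0.62 (adjusted p = 0.0611). Between D4H8 and D5 the log2 fold change was -0.60 (adjusted p = 0.134), and the call was made with no filter on low counts (-0.61, adjusted p = 0.0152) and without D5 replicate 3 (-0.91, adjusted p = 0.0404). Egr2, which acts with Egr1 in many cells, had 16, 5 and 6 counts at D4 and 5, 8 and 6 at D6 and was too low to be tested along the untreated stages.

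Klf6 and Ier2 had fold changes of opposite sign on the last day. From D5 to D6 the log2 fold change was 0.40 for Klf6 (edgeR adjusted p = 0.0587) and -0.52 for Ier2 (adjusted p = 0.0719), so neither passed here. Klf6 was at 11.07, 9.25 and 10.4 FPKM at D4, at 9.96, 10.73 and 10.97 FPKM at D4H8, at 9.58, 11.31 and 14.39 FPKM at D5 and at 13.22, 13.06 and 16.67 FPKM at D6. The D6 libraries lay above those of D4 and D4H8 and overlapped those of D5. The rise from D4 to D6 was 1.45-fold (log2 0.54, SE 0.15, edgeR adjusted p = 0.00704). Ier2 was at 27.26, 34.97 and 48.07 FPKM at D4, at 34.26, 36.05 and 42.04 FPKM at D4H8, at 45.41, 32.95 and 48.53 FPKM at D5 and at 18.41, 29.14 and 34.69 FPKM at D6, where 2 of 3 libraries were below all of D5. Over the course Ier2 had a log2 fold change of -0.35 (adjusted p = 0.161).

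Taken step by step, none of the 9 members passed the test between D4 and D4H8, where 4.06% of all genes were higher and 0.320% lower, while 3 members (Jun, Dusp1 and Fos) were higher and 0 lower at an unadjusted p under 0.05, against 10.9% and 5.66% of all genes, and DESeq2 called 1, Jun. Between D4H8 and D5, 2 members rose (Jun and Dusp1) and 0 fell, against 17.2% and 10.5% of all genes. Between D5 and D6 the same 2 rose and 0 fell, against 19.2% and 15.1%. Replicates with the same number deviated together in D5 and D6, and with the replicate number as a block 3 members rose and 2 fell in that step, against 20.8% and 17.2% of all genes. The 3 additional calls were Klf6 (log2 fold change 0.40, edgeR adjusted p = 0.045 with the block and 0.0587 without), Ier2 (-0.54, adjusted p = 0.024 with the block and -0.52, adjusted p = 0.0719 without) and Junb (-0.69, adjusted p = 0.0383 with the block and -0.67, adjusted p = 0.118 without). Within each replicate number, Ier2 and Junb were lower at D6 than at D5 in 3 of 3 pairs and Klf6 was higher in 3 of 3.

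**Figure D2:**
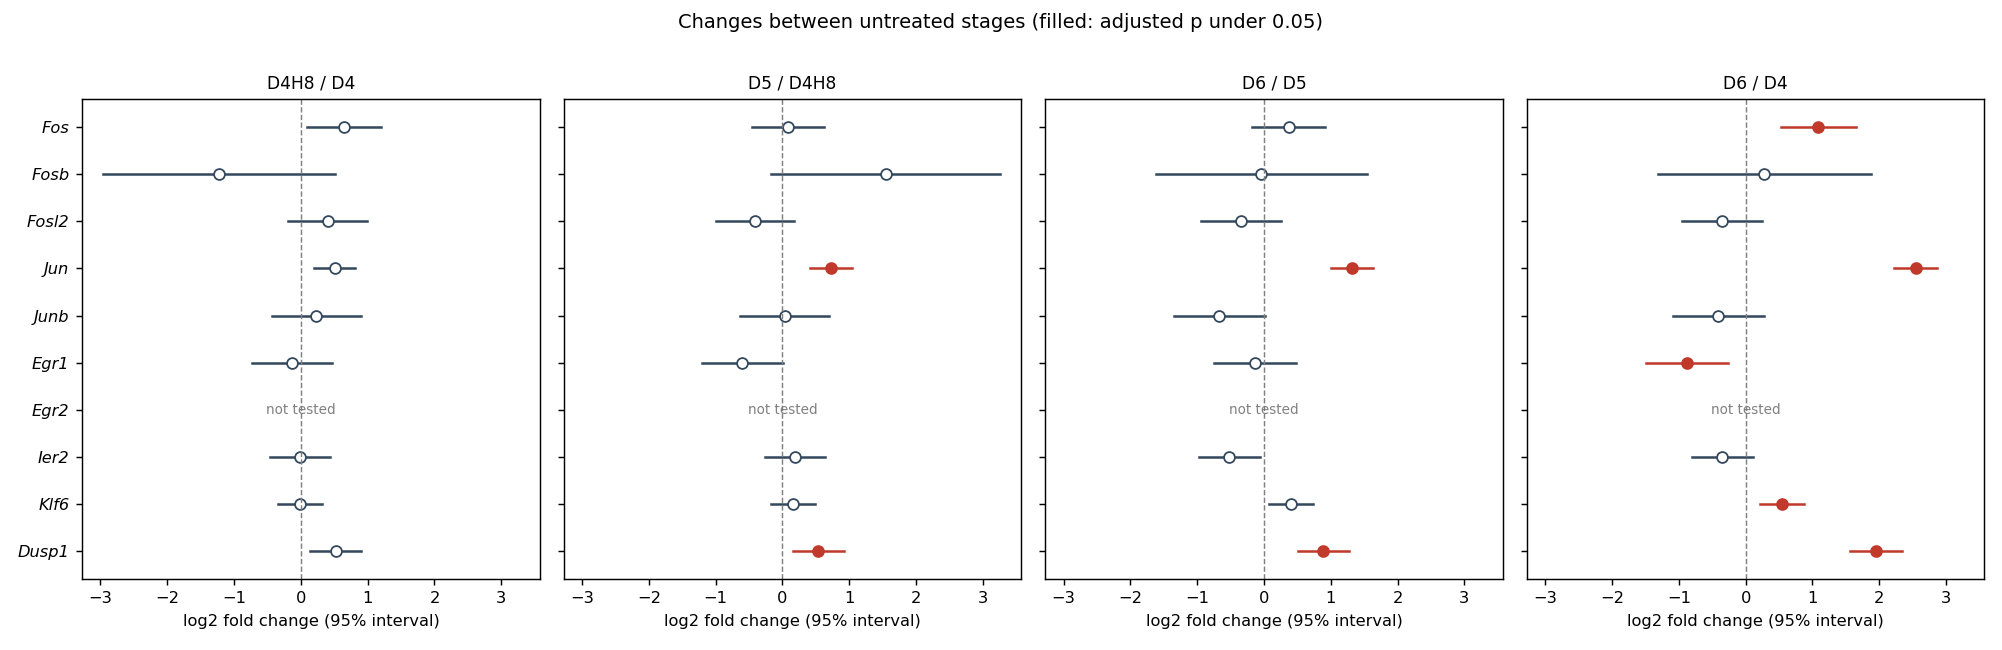
Log2 fold change of the tested members in the stage comparisons of untreated cultures, with points for the edgeR estimate and bars for the 95% confidence interval. Jun and Dusp1 lie to the right of 0 in each step and over the whole course (2.55 and 1.95 from D4 to D6), and Egr1 lies to the left over the whole course (-0.88).

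Other genes of the response were taken from lists of known immediate early transcription factors, effectors and feedback regulators. From D4 to D6, 8 of 16 tested immediate early transcription factors outside the 10 members rose and 3 fell, with a median log2 fold change of 0.58. This count and those of the other lists in this comparison are to be read against the 32.9% of all genes that were higher and the 31.0% that were lower. Those with the largest changes were Nr4a3, an orphan nuclear receptor (log2 2.71, edgeR adjusted p = 4.599e-05), Npas4, an activity-induced factor of neurons (2.69, adjusted p = 0.00149), Nfil3, a bZIP repressor (2.17, adjusted p = 4.086e-07), and Atf3, a stress-induced partner of Jun, which fell by 2.28 (adjusted p = 0.00017). Nr4a3 and Npas4 remained low at D6, at mean levels of 0.54 and 0.71 FPKM. Among 18 effectors, 7 rose and 5 fell, led by Ccn1, a matrix protein, which fell by 2.50, Ier3, a survival factor (1.79), Plk3, a Polo-like kinase (1.75), and Gadd45g, a growth arrest gene, which fell by 1.58. The effector list had a median of -0.06 against -0.04 over all genes.

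The feedback genes of the ERK pathway moved in both directions. Of 11, 5 rose and 2 fell between D4 and D6. Dusp4, a nuclear MAP kinase phosphatase of the same family as Dusp1, went from a mean of 5.26 to 95.2 FPKM (log2 4.27, SE 0.23, edgeR adjusted p = 2.48e-09), while Dusp5, an ERK-specific phosphatase, went from 20.0 to 2.89 FPKM (log2 -2.75, SE 0.33, adjusted p = 5.359e-06). Spry4, a Sprouty inhibitor, and Etv4, an ETS factor induced by ERK, also rose (log2 2.37 and 1.65). Of the 11 upstream factors, 3 rose (Mrtfa by 1.28, Elk3 by 0.91 and Elk1 by 0.71 on the log2 scale) and 3 fell, of which Atf1, a CREB relative, fell by 1.39. Leaving out D4 replicate 1 or 2 or D6 replicate 2 or 3 took Elk3 past the threshold. Of the 11 upstream kinases, 5 rose, led by the JNK genes Mapk9 (1.82) and Mapk8 (1.54) and by Mapk3, which encodes ERK1 (0.93), and 2 fell, with Rps6ka3, which encodes the kinase RSK2, the larger (-0.84). JNK is the kinase that phosphorylates Jun. Of the 4 tested AP-1 partners, Batf3 (-2.18) and Jdp2 (-0.92) fell and Atf2 rose (0.40). Jdp2 and Atf2 did not hold up when single libraries were left out: Jdp2 was lost without any of D4 replicates 1 and 2 and D6 replicates 1 and 3, and Atf2 without D4 replicate 3 or D6 replicate 1.

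The same lists differed by step. Between D4 and D4H8, when no member passed, 4 of 18 effectors rose and 0 fell, against 4.06% and 0.320% of all genes: Plk3 (log2 2.40), Gadd45g (2.39), Btg2, an antiproliferative gene (1.28), and Trib1, a pseudokinase (0.80), the last of which was lost without D4 replicate 1 or 2 or D4H8 replicate 1. Dusp4 rose by 1.15 in that step, and the transcription factor, upstream factor, kinase and AP-1 partner lists had 0 calls. At an unadjusted p under 0.05 by edgeR, 10.9% of all genes were higher and 5.66% lower. At that threshold 2 of 16 transcription factors, 1 of 11 upstream factors, 1 of 11 kinases and 0 of 4 partners were higher, and 0 were lower. Between D4H8 and D5, where 17.2% of all genes were higher and 10.5% lower, 3 transcription factors rose, 2 effectors fell, 2 feedback genes rose and 2 fell, 2 upstream factors fell and 2 kinases (Mapk8 and Mapk9) rose, and the block over replicate number added 2 kinases that fell and 1 AP-1 partner that rose. Between D5 and D6, where the shares of all genes were 19.2% and 15.1%, the counts were 4 higher and 3 lower transcription factors, 4 higher and 6 lower effectors, 4 higher and 1 lower feedback genes, 1 higher upstream factor, 3 higher and 1 lower kinases and 1 lower partner.

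In the same libraries, markers of other cells moved with the stage. Between D4 and D6 all 6 motor neuron and all 5 pan-neuronal markers rose, 4 of 5 progenitor markers fell and 1 rose, and 1 of 6 pluripotency markers fell. Fibroblast markers (6 genes) summed to between 3.70 and 16.3 FPKM at D4 and to between 11.5 and 25.8 FPKM at D6, 2 of the 6 were higher, and Lum was at 0 in 2 of the 21 libraries. Of 4 heat and handling genes, 1 rose and 2 fell. Endothelial markers (4 genes) summed to at most 5.10 FPKM in a library and endoderm markers (4 genes) to at most 2.73 FPKM, with 2 of 4 endothelial markers higher and, among the 2 endoderm markers tested, 1 higher and 1 lower. Afp was at 0 in 7 libraries, Apoa1 in 6, Ttr in 4 and Sox17 in 1, and among the endothelial markers Cdh5, Kdr and Tek were at 0 in 1 library each. The part of these in the changes of Jun, Dusp1, Fos, Klf6 and Egr1 was not tested.

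GSKJ4 at D4H8 was the treatment comparison in which a member passed the test. Klf6 was the member that rose, by 1.97-fold, and Fos, Fosl2, Egr1 and Egr2 lay above their untreated libraries without passing the test. Of 9 tested members, 1 was higher and 0 were lower by edgeR (adjusted p under 0.05 over 16269 genes), against 2.11% and 1.85% of all genes. The fold changes of 8 of the 9 were positive, 4 were higher and 0 lower at an unadjusted p under 0.05 (14.1% and 11.0% of all genes), and the median log2 fold change was 0.90, against 0.02 over all genes. The depth-scaled counts (CPM) of the 2 groups did not overlap for 5 of 9 members, all 5 higher with GSKJ4 and 0 lower, where the same was true of 18.5% (higher) and 14.3% (lower) of all tested genes.

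Klf6 had 9.96, 10.73 and 10.97 FPKM in the untreated replicates and 24.5, 21.79 and 17.32 FPKM in the treated ones. The lowest treated library was well above the highest untreated one. The means were 10.55 ± 0.528 FPKM and 21.2 ± 3.63 FPKM (SD, n = 3 each), a difference of 0.98 on the log2 scale (SE 0.19, adjusted p = 0.0312 by edgeR). Leaving out 1 library in turn kept the log2 fold change between 0.89 and 1.13, but the adjusted p passed 0.05 without D4H8 replicate 1 (0.175), 2 (0.153) or 3 (0.113) and without D4H8+GSKJ4 replicate 1 (0.0552).

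Among the Fos and Egr families the treated libraries were higher and also more scattered. Fos was at 1.17, 1.28 and 1.14 FPKM untreated and at 4.17, 1.44 and 1.79 FPKM treated, and Fosl2 at 1.59, 1.49 and 1.12 against 4.46, 2.29 and 1.68 FPKM. Egr1 was at 6.04, 5.86 and 7.15 FPKM untreated and at 17.2, 10.28 and 9.08 FPKM treated. In each of these 3 genes the groups did not overlap and treated replicate 1 was the highest. The log2 fold changes were 0.99 for Fos (SE 0.41, edgeR adjusted p = 0.177), 0.96 for Fosl2 (SE 0.35, adjusted p = 0.132) and 0.90 for Egr1 (SE 0.25, adjusted p = 0.0724). Egr2 had 17, 3 and 8 counts untreated and 13, 15 and 13 treated, which scaled for depth did not overlap (at most 0.16 FPKM against at least 0.23 FPKM), with a log2 fold change of 0.96 (SE 0.53, adjusted p = 0.293). Fosb had 7, 4 and 0 counts untreated and 3, 0 and 4 treated, and was not tested.

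The Jun family, Ier2 and Dusp1 overlapped between treated and untreated libraries. Treated Jun was at 30.14, 12.25 and 18.82 FPKM, treated Junb at 20.99, 5.58 and 12.1 FPKM, treated Ier2 at 67.98, 23.17 and 66.52 FPKM and treated Dusp1 at 7.26, 3.77 and 6.92 FPKM. In all 4 genes treated replicate 1 was the highest and replicate 2 the lowest, with replicate 2 below every untreated D4H8 library. Over all genes with at least 10 counts in each treated library, replicate 2 was the lowest for 50.02%. The log2 fold changes were 0.20 for Jun (95% interval -0.42 to 0.81), 0.70 for Junb (-0.16 to 1.55), 0.42 for Ier2 (-0.29 to 1.14) and -0.00249 for Dusp1 (-0.57 to 0.56), with edgeR adjusted p-values of 0.688, 0.287, 0.436 and 0.997.

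Replicate 1 of D4H8+GSKJ4 was the highest of its group for 8 of 9 members counted, against 34.65% of all genes with at least 10 counts in each library of the group. Without it the log2 fold change was 0.89 for Klf6, 0.60 for Egr1, 0.40 for Fos, 0.49 for Fosl2, 0.17 for Junb, 0.20 for Ier2, -0.18 for Jun and -0.15 for Dusp1, and 0 members passed. Egr2, for which replicate 1 was not the highest, stood at 1.02 without it. Without replicate 2 of the treated group, 3 members passed: Klf6 (0.90, edgeR adjusted p = 0.0237), Ier2 (0.75, adjusted p = 0.0182) and Junb (1.03, adjusted p = 0.0447). Which members passed thus turned on single libraries, while the log2 fold changes of Klf6, Egr1, Fos, Fosl2, Egr2, Junb and Ier2 were positive whichever library was left out, and those of Jun and Dusp1 were not.

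Markers of other cells also differed between these groups. Progenitor markers (5 genes) summed to between 203.01 and 283.41 FPKM untreated and to between 42.7 and 90.4 FPKM treated, with 3 of 5 lower and Hes5 at 0 in 1 of the 21 libraries. Motor neuron markers went from between 53.3 and 57.9 to between 11.3 and 26.0 FPKM, with 3 of 5 tested lower. Pan-neuronal markers summed to between 167.7 and 330.28 FPKM untreated and to between 70.3 and 198.87 FPKM treated, with 0 of 5 called and 2 lower at an unadjusted p under 0.05. Fibroblast markers summed to between 5.21 and 12.7 FPKM untreated and to between 8.72 and 26.0 FPKM treated, with 0 of 5 tested called, 1 of them higher at an unadjusted p under 0.05. Pluripotency markers summed to between 55.95 and 240.73 and to between 108.58 and 246.18 FPKM, with 0 of 6 called and 0 at an unadjusted p under 0.05. Heat and handling genes summed to between 55.5 and 63.6 FPKM untreated and to between 47.3 and 58.45 FPKM treated, with 0 of 4 called and 1 higher at an unadjusted p under 0.05. Endothelial markers had 0 of 4 and endoderm markers 0 of 1 called, with 0 and 1 lower at an unadjusted p under 0.05. The part of the progenitor, neuronal and fibroblast markers in the Klf6 result was not tested.

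Among the other genes of the response, few passed the test with GSKJ4 at D4H8, where 2.11% of all genes were higher and 1.85% lower. Atf3 rose from a mean of 5.60 to 14.7 FPKM (log2 1.34, SE 0.32, edgeR adjusted p = 0.0498), 1 of 16 transcription factors tested. Nab1, a corepressor that binds Egr1 and Egr2, rose from 4.72 to 11.3 FPKM (log2 1.25, SE 0.23, adjusted p = 0.0275), 1 of 11 upstream factors. Dusp4 was lower, 6.40 FPKM against 11.9 (log2 -0.93, SE 0.21, adjusted p = 0.0458), the 1 feedback gene of 11 that passed. None of 18 effectors, 11 kinases and 4 AP-1 partners passed by edgeR. At an unadjusted p under 0.05 by edgeR, 14.1% of all genes were higher and 11.0% lower. At that threshold 5 transcription factors, 6 effectors, 2 feedback genes, 3 upstream factors, 3 kinases and 2 partners were higher. In the other direction, 1 transcription factor, 3 effectors and 1 feedback gene were lower. These counts include the genes that passed after adjustment. Leaving out any untreated D4H8 replicate took each of Atf3, Nab1 and Dusp4 past the threshold, as did leaving out treated replicate 1 for Atf3 and treated replicate 3 for Dusp4. The median log2 fold change was 0.13 for the transcription factors, 0.37 for the effectors, 0.58 for the feedback genes and 0.88 for the AP-1 partners. It was 0.24 for the upstream factors, 0.13 for the kinases and 0.02 over all genes.

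**Figure D3:**
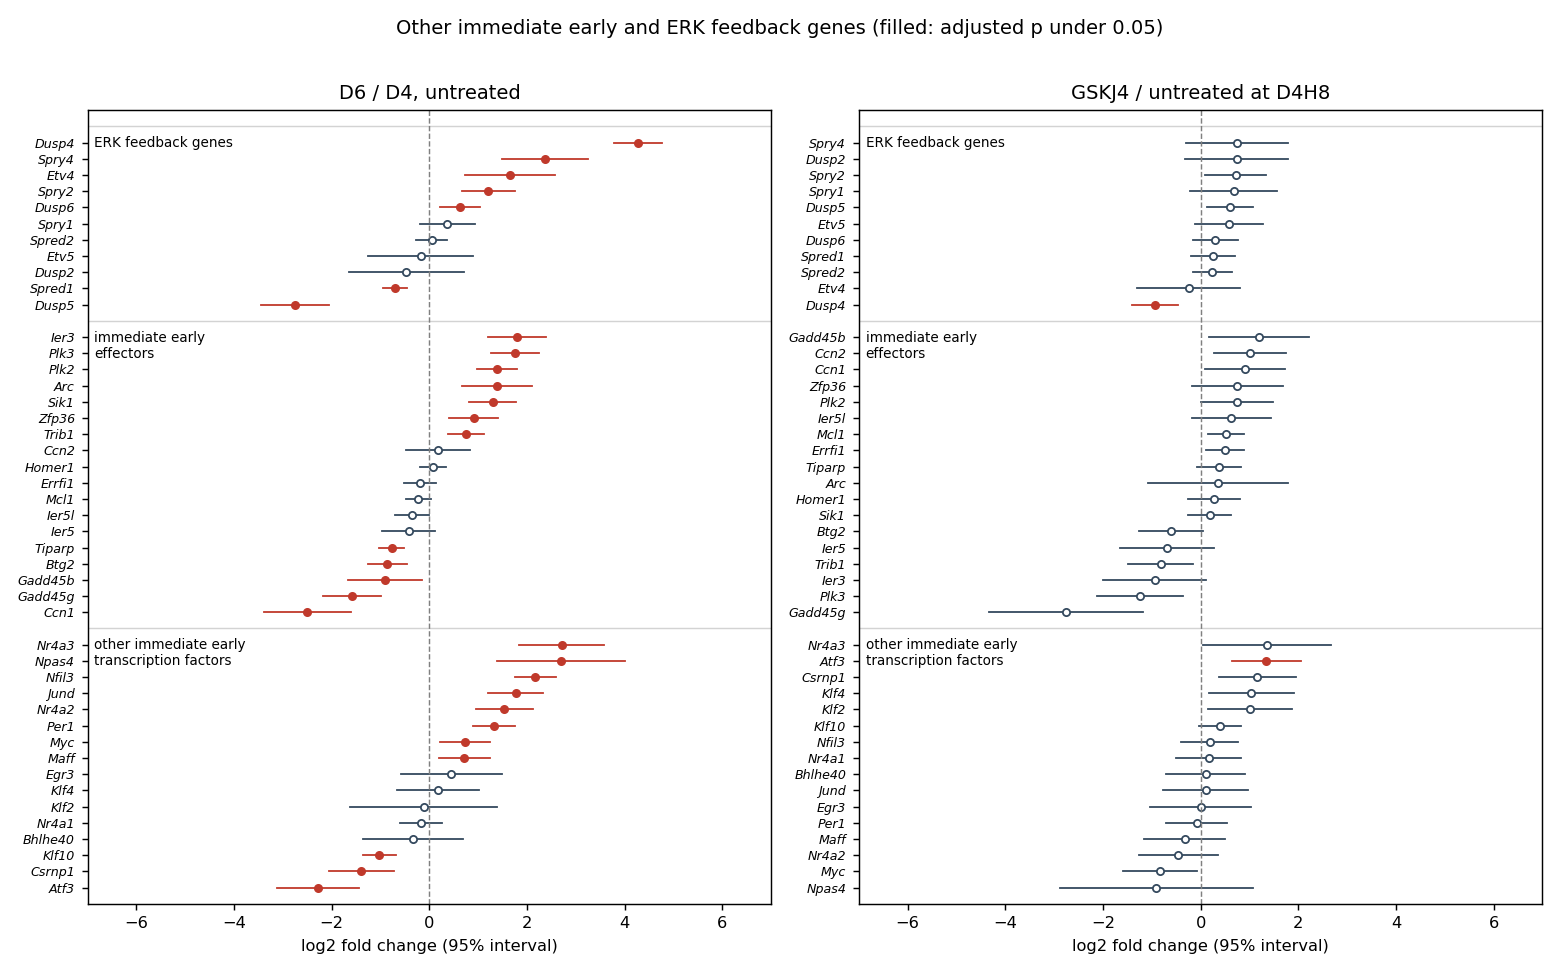
Log2 fold change of the other immediate early transcription factors, effectors and ERK feedback genes, from D4 to D6 and with GSKJ4 at D4H8, with filled red points for edgeR adjusted p under 0.05. Dusp4 (4.27) and Dusp5 (-2.75) mark the ends of the D4 to D6 range of the feedback list, and with GSKJ4 at D4H8 the filled points are Atf3 (1.34) and Dusp4 (-0.93).

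At D5 and D6 no member passed the test with GSKJ4. At D5, 0 of 8 tested members were called, against 0.00613% of all genes, and 0 members were past an unadjusted p of 0.05. Klf6, which had risen at D4H8, was at 9.58, 11.31 and 14.39 FPKM untreated and at 9.53, 6.55 and 11.76 FPKM treated, overlapping and with a log2 fold change of -0.38 (95% interval -0.91 to 0.15, edgeR adjusted p = 0.976). Fos was at 1.35, 1.2 and 1.24 FPKM untreated and at 1.29, 3.41 and 1.83 FPKM treated (log2 0.72, interval -0.33 to 1.77, adjusted p = 0.976). The high Fos value came from replicate 2, the library with the most genes at 0, and without it the log2 fold change of Fos was 0.26 and that of Klf6 -0.17. Egr1 and Jun had log2 fold changes of 0.42 and -0.24 (adjusted p = 0.976 each). DESeq2 called 27 genes higher and 38 lower at D5 in all, with 377 higher and 390 lower at an unadjusted p under 0.05 by edgeR.

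At D6, 0 of 8 members were called, against 0% of all genes by edgeR. The log2 fold changes ran from -0.08 (Jun, 95% interval -0.28 to 0.11) to 0.25 (Junb, -0.88 to 1.38), with an edgeR adjusted p of 1 for each member and 0 members past an unadjusted p of 0.05. Treated Jun stood at 59.81, 62.3 and 63.53 FPKM and treated Dusp1 at 15.77, 14.8 and 14.29 FPKM, within or close to the untreated ranges. Across all genes 88 were higher and 134 lower at an unadjusted p under 0.05, and DESeq2 called 0 higher and 1 lower. With the replicate number as a block, which paired the libraries at D6, 48 of the 16301 genes tested were higher and 209 lower. In that fit 0 of the 8 members, 2 of 10 feedback genes and 1 of 16 other transcription factors were called, all 3 lower. Fosb, below the count needed for a test, had 4, 10 and 7 counts untreated and 1, 1 and 0 treated. The response lists had 0 calls at D5 and D6 without the block.

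**Figure D4:**
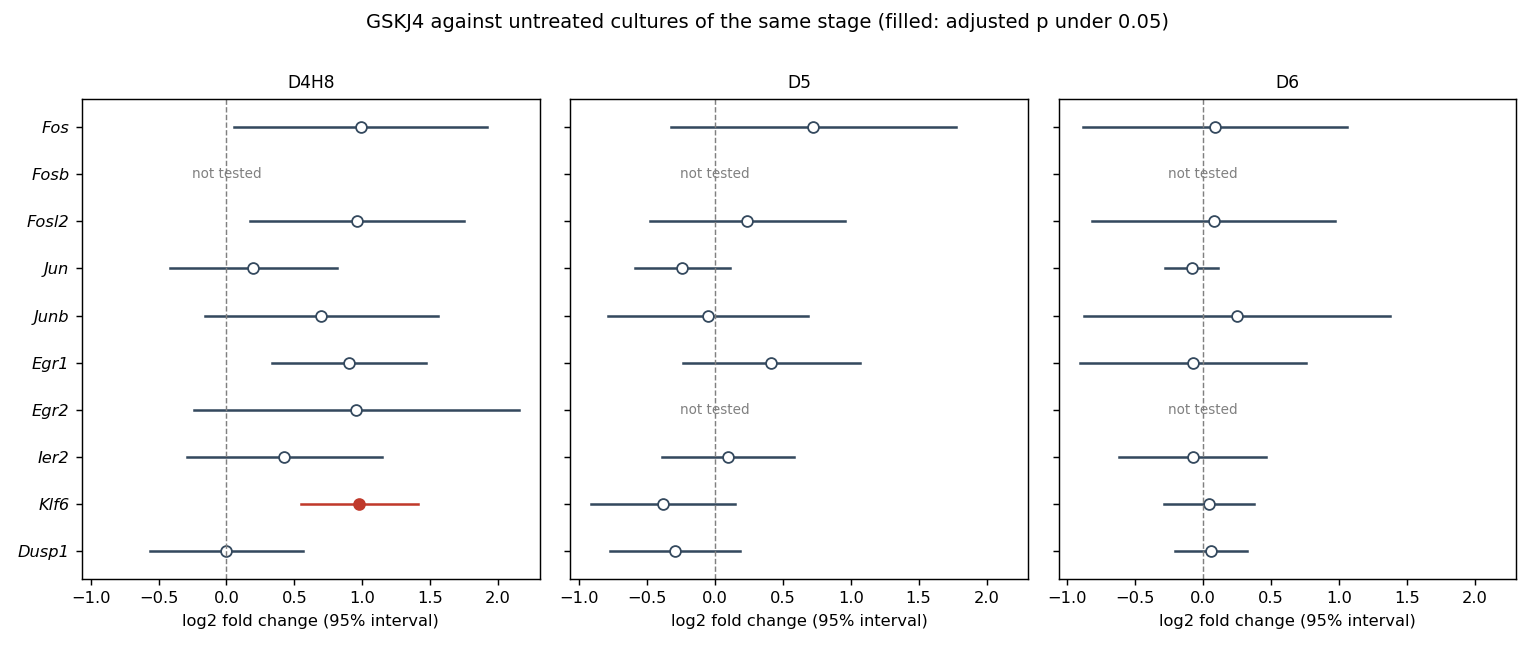
Log2 fold change of the members with GSKJ4 at D4H8, D5 and D6, with points for the edgeR estimate and bars for the 95% confidence interval. At D4H8 most members lie to the right of 0 and Klf6 (0.98) is the one that passed, while at D5 and D6 the intervals of the tested members span 0.

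The difference between stages was tested as such, with the GSKJ4 effect at a later stage minus that at D4H8. None of the 10 members, all tested in that fit, passed for D5 minus D4H8, D6 minus D4H8 or D6 minus D5, against 0.249%, 0.735% and 0% of all genes. The effect on Klf6 was lower at D5 than at D4H8 by 1.37 on the log2 scale (log2 -1.37, SE 0.30, 95% interval -1.995 to -0.74, edgeR adjusted p = 0.0719). That difference was called with DESeq2 (adjusted p = 0.00366) and by edgeR with no filter (0.00128), with the replicate block (0.0235) and in the fit over all 21 libraries (0.0353), but not with RLE scaling (0.062) or upper-quartile scaling (0.0524). For D6 minus D4H8 the difference was -0.93 for Klf6 (adjusted p = 0.164) and -0.97 for Egr1 (adjusted p = 0.366), and for D6 minus D5 it was 0.44 for Klf6 (adjusted p = 1.00). Whether the difference between D4H8 and D5 passed thus depended on the setting.

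Within several groups 1 library was the highest or the lowest for most members. Replicate 3 was the highest for 6 of the 8 members with enough counts at D4, 4 of 8 at D4H8, 7 of 8 at D5, 5 of 8 in D5+GSKJ4, 6 of 8 at D6 and 7 of 8 in D6+GSKJ4, but for 0 of 9 in D4H8+GSKJ4. Over all genes with at least 10 counts in each library of the group, replicate 3 was the highest for 49.28% at D4, 41.47% at D4H8 and 34.78% at D5. The share was 31.32% in D5+GSKJ4, 38.99% at D6, 37.97% in D6+GSKJ4 and 35.56% in D4H8+GSKJ4. Replicate 1 was the lowest for 5 of 8 at D5 (44.35% of all genes), 6 of 8 in D5+GSKJ4 (42.94%), 5 of 8 at D6 (50.22%) and 6 of 8 in D6+GSKJ4 (47.99%). It was the lowest for 2 of 8 at D4 (56.71%), 3 of 8 at D4H8 (46.87%) and 1 of 9 in D4H8+GSKJ4 (28.75%). At D4 replicate 2 was the lowest for 6 of 8 members (17.1% of all genes): Fos, Fosl2, Jun, Junb, Egr1 and Klf6. The counts of members are to be read against these shares. Junb showed the high replicate 3 most plainly, with 7.06, 5.28 and 11.01 FPKM at D5, 2.71, 3.65 and 7.30 FPKM at D6 and 2.79, 4.54 and 8.99 FPKM in D6+GSKJ4. Jun and Dusp1 at D6 did not share it: replicate 2 was the highest for both.

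The genes with a pattern most like that of Fos were sought over the 21 libraries by the root-mean-square difference of log2 CPM centred on each gene's mean. Of 13668 candidates with a mean level of at least 1 FPKM, the nearest 5 were Cdkn1a, the cyclin-dependent kinase inhibitor p21 (0.346 on the log2 scale), Tmem176a (0.357), Wdr81 (0.381), Rragc, a Rag GTPase (0.389), and Zfpm1, a GATA cofactor (0.399), against a median of 0.797 over the candidates. Cdkn1a went from 15.7 FPKM at D4H8 to 41.2 FPKM in D4H8+GSKJ4, and was at 21.8 and 30.5 FPKM at D5 and D5+GSKJ4. The other members were farther from Fos, from 0.61 (Ier2) and 0.624 (Fosl2) to 0.882 for Jun and 1.23 for Fosb, which was measured from few counts. Libraries share depth and composition across genes, so these distances are a description.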

How the data were processed

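Poly(A) RNA of 21 libraries (7 groups of 3) was analysed from the table of raw gene counts and the FPKM values that the authors deposited. Per the labels and the methods of the study, Fastp trimmed the reads, HISAT2 placed them on mm10, SAMtools sorted them and HTSeq counted them per gene of an Ensembl annotation, and FPKM were computed from counts and annotated gene lengths. FPKM recomputed from the deposited counts differed by at most 0.005. The dose of GSKJ4, the vehicle of untreated cultures and the use of strand in counting are not given in the sources used here. All columns of samples were used (0 left out).

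Counts were tested with edgeR 4.0.16 in R 4.3.3 (filterByExpr, TMM scaling, quasi-likelihood test, Benjamini-Hochberg adjustment over all genes tested, threshold 0.05) in 1 fit of the untreated groups, 1 fit for each GSKJ4 stage and 1 fit of all treated and untreated libraries of D4H8, D5 and D6 for the differences between stages. DESeq2 1.42.0, RLE and upper-quartile scaling, no filter, a replicate block, 1 fit over all 21 libraries and leaving out each library were the alternatives. The scripts were tested on simulated counts. Replicate numbers were taken to pair libraries where all 3 correlations of deviations between same-numbered libraries were over 0.1: D4 with D4H8 (0.13 to 0.35), D4H8 with D5 (0.155 to 0.339), D5 with D6 (0.182 to 0.345) and D6 with D6+GSKJ4 (0.431 to 0.757). No pair of libraries was found to be a duplicate.

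All 10 members are named; of the other lists, up to 4 genes with the largest absolute log2 fold change among those with an adjusted p under 0.05, and the 5 genes nearest Fos. The members and lists were chosen with earlier results of these data known. Promoters were searched on both strands. Python 3.11.15 with pandas 2.3.3 and matplotlib 3.10.9 was used for summaries.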

Additional observations from a re-analysis of the deposited data

How the results depend on the processing

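Members called changed with the setting as follows. From D4 to D4H8, 0 became 1 (Jun) with DESeq2 and 1 with no filter. From D4H8 to D5, 2 became 1 with upper-quartile scaling and 1 in the fit over all 21 libraries and 3 with no filter (Egr1 added), and ran from 1 to 2 with 1 library left out. From D5 to D6, 2 became 3 with DESeq2 and 3 with RLE scaling (Klf6 added in each), 3 with upper-quartile scaling (Ier2 added), 4 with no filter (Ier2 and Junb added, adjusted p = 0.00874 and 0.0315) and 5 with the replicate block, and ran from 2 to 4 with 1 library left out. With GSKJ4 at D4H8, 1 became 2 with DESeq2, 3 with no filter and 3 with the replicate block (Klf6, Egr1 with edgeR adjusted p = 0.0279 and Fosl2 with 0.0329), and ran from 0 to 3 with 1 library left out. There the numbers were not taken to pair the libraries, since not all correlations of same-numbered libraries were over 0.1. They were 0.49 for replicate 1, 0.0895 for replicate 2 and 0.298 for replicate 3. Whether these libraries share a culture is not stated by the study. For D5 minus D4H8, 0 became 1 with each of DESeq2, no filter, the replicate block and the fit over all 21 libraries, and ran from 0 to 1 with 1 library left out. In the other comparisons the block changed no member's call.

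A few directions turned. Dusp1 with GSKJ4 at D4H8 was 0.00215 with upper-quartile scaling and ran from -0.15 to 0.20 with 1 library left out, Jun there from -0.18 to 0.42, and Junb with GSKJ4 at D6 from -0.30 to 0.74. Upper-quartile scaling moved the median log2 fold change of all genes from D4 to D6 from -0.04 to -0.19 with no change in a member's direction. Of the printed fold changes under an alternative, 432 kept side and direction, 30 passed the threshold anew, 13 no longer passed and 5 reversed. The cause was not tested.

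The number of all genes called depended more on the setting. It was 767 from D4 to D4H8 against 1319 with no filter and 422 over all 21 libraries, 4861 from D4H8 to D5 against 3218 over all 21 libraries, and 644 with GSKJ4 at D4H8 against 1957 with DESeq2, 2287 with no filter, 2274 with the block and 2048 over all 21 libraries, and 43 to 1746 with 1 library left out. With GSKJ4 at D5 it was 1 against 65 (DESeq2), 128 (no filter) and 9 at most in the other settings, and at D6 0 against 1 (DESeq2) and 257 (block). For D5 minus D4H8 it was 45 against 238 with DESeq2, 351 with no filter and 185 with the block, and for D6 minus D4H8 133 against 580, 626 and 491. Fosb, Egr2 and Fos rest on few counts, which limits their precision.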
